A study of Homo sapiens with 6 samples.

Results

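Small RNA libraries from whole MIO-M1 cells and from the extracellular vesicles (EV) that these cells release were examined for the miR-193 and miR-365 clusters. The members were the 6 mature arms hsa-miR-193a-5p, hsa-miR-193a-3p, hsa-miR-193b-5p, hsa-miR-193b-3p, hsa-miR-365a-3p and hsa-miR-365b-3p (hereafter without the species prefix), found by name among the 2576 mature miRNAs listed for each library. MIO-M1 is an established, wild-type human Müller glial line. Of 6 miRNAs known in Müller glia, none was at 0 in any library. This could not check the labelled cell type, as no other cell type was sequenced for comparison. The summed share of these 6 miRNAs in the total count was 26.4% to 32.6% in whole cells and 14.7% to 21.9% in EV. The summed level of 4 photoreceptor miRNAs was 227 to 333 CPM (counts scaled to the total of their library) in whole cells and 1151 to 1218 CPM in EV. Of these 4, miR-124-3p was at 0 in every library. miR-96-5p was at 0 in the EV libraries from passage 23 and passage 27 and in no whole cell library. The part of these shifts in the results on the members was not tested. Whole cell RNA was sequenced from 3 samples, taken at passage 22, passage 24 and passage 26, and EV RNA from 3 samples, taken at passage 23, passage 25 and passage 27. Within each group these are numbered replicate 1, replicate 2 and replicate 3 by passage. All cultures were grown in DMEM with FCS, penicillin and streptomycin, and according to the labels EV were collected from serum-free DMEM over 24 h, whereas the methods of the study give a longer time and vesicle-depleted medium. Cell pellets were extracted with a Qiagen RNeasy kit and EV pellets with the Total Exosome RNA Isolation Kit. By the methods of the study, EV also went through filtration, ultracentrifugation over sucrose and RNase A treatment, whereas cells were lysed directly. The kit and these steps cannot be told apart from the group. All samples are passages of 1 line, and p-values measure the spread between them only. Whole cell libraries held total counts of 396025 to 3990900, the lowest being replicate 1, and EV libraries held 1225541 to 3134561.

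A miRNA hairpin is cut by Drosha and Dicer into a duplex with a 5p and a 3p arm, and usually the arm that is loaded into Argonaute persists whilst the other is degraded. Which arm dominates differs between hairpins and can differ between cell types. The miR-193 and miR-365 genes lie in a pair of duplicated clusters, each with a miR-193 and a miR-365 hairpin. miR-193b is known as a repressor of cyclin D1 and of urokinase plasminogen activator, and miR-193b and miR-365 are known together from the differentiation of brown adipocytes in the mouse.

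The hairpins are given 5′ to 3′ because the results turn on their arms, which are in capitals. MIR193B (chr16:14303967-14304049) and MIR365A (chr16:14309285-14309371) lie 5235 bases apart on the plus strand of GRCh38.p14, both in an intron of the non-coding gene MIR193BHG in the GENCODE annotation. MIR193A (chr17:31559996-31560083) and MIR365B (chr17:31575411-31575521) lie 15327 bases apart on the plus strand of chromosome 17. MIR365B overlaps an exon of the non-coding gene AC003101.1, and no gene other than its own was annotated over MIR193A. Sequences and positions are those of RefSeq, which held all members.
MIR193B: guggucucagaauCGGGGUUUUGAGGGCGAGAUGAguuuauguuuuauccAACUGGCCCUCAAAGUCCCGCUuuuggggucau
MIR193A: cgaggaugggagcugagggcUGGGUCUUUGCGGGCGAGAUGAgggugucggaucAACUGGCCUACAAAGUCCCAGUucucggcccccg
MIR365A: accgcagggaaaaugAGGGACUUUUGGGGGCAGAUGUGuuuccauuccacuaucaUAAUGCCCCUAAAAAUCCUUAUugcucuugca
MIR365B: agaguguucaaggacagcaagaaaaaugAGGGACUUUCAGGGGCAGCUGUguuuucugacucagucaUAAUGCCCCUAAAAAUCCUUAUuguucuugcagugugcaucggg

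The mature members are given with their seed, bases 2 to 8 from the 5′ end, in capitals, since arms with the same seed are held to recognise the same target sites. All are 22 bases long.
miR-193a-3p: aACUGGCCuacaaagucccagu
miR-193b-3p: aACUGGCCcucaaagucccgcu
miR-365a-3p: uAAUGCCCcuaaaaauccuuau
miR-365b-3p: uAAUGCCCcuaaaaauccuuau
miR-193a-5p: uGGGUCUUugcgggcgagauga
miR-193b-5p: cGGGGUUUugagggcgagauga
The 3p arms of miR-193a and miR-193b shared their seed and differed at 4 of 22 positions, U9C, A10U, A20G and G21C, with the base of miR-193a first. Their 5p arms also differed at 4 positions, U1C, U5G, C6U and C11A, of which U5G and C6U lie in the seed, so that each 5p arm had a seed of its own. No other miRNA of the tables with a known sequence had any of these 4 seeds. The miR-365 3p arms were the same sequence, and their GC content was 31.8%, against 50% for miR-193a-3p and 59.1% for the other miR-193 arms, and a median of 50% over the 390 tested miRNAs with a sequence. None of the members held GGAG or GGCU, short motifs known for binding by the RNA sorting proteins hnRNPA2B1 and SYNCRIP. Over the same 390 miRNAs, GGAG was found in 10.5% and GGCU in 14.4%.

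As miR-365a-3p and miR-365b-3p cannot be told apart by sequence, the way in which their reads were divided was examined first. The row of miR-365a-3p had 81, 1099 and 238 counts in replicates 1, 2 and 3 of whole cells, and that of miR-365b-3p had 90, 1098 and 236. In EV replicates 1, 2 and 3 the counts were 58, 0 and 0 for miR-365a-3p and 56, 0 and 1 for miR-365b-3p. The reads were divided almost evenly wherever there were more than a few. The row of miR-365a-3p took 50% of the reads of both rows in whole cell replicate 2, with an exact binomial 95% interval of 47.9% to 52.1%, and 50.9% in EV replicate 1, with an interval of 41.3% to 60.4%. The only other tested rows with 1 sequence between them, miR-199a-3p with 2 loci and miR-199b-3p with 1, were divided near the 66.7% of their loci, with 65.5% on miR-199a-3p in EV replicate 3 (exact binomial interval 62.6% to 68.3%). The rows of miR-365 therefore hold 1 measurement, and neither gives the expression of its own locus. They are described below as their sum, miR-365-3p, and are not counted as separate evidence.

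**Figure D1:**
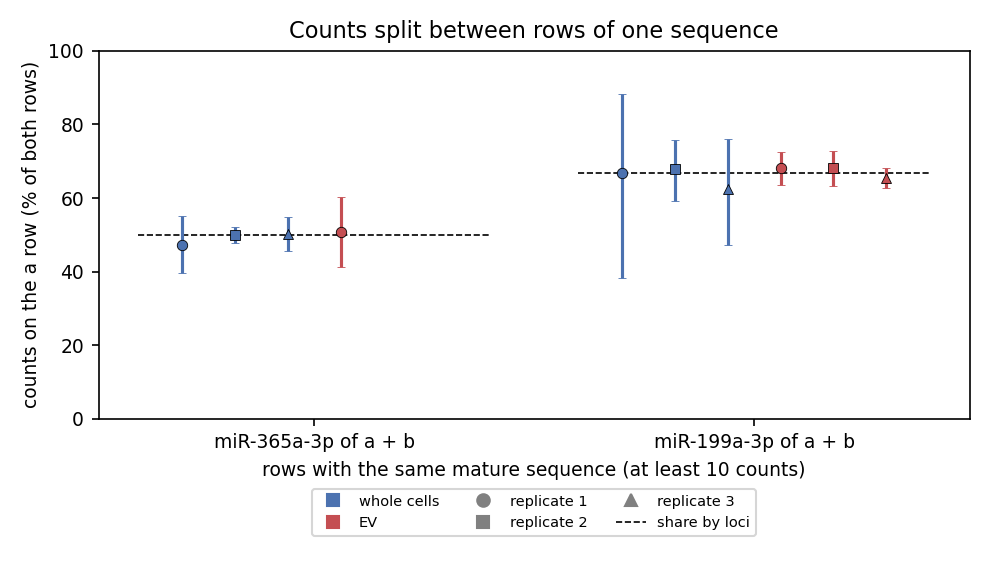
Share of counts on the first of a pair of rows with the same mature sequence (y axis, %), for miR-365a-3p and miR-199a-3p in each library with at least 10 counts over both rows. Points are libraries, bars are exact binomial 95% intervals, and dashed lines mark the shares expected from the number of loci, 50% and 66.7%, which every interval includes.

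The members together made up 0.0518%, 0.0850% and 0.0743% of all counts in replicates 1, 2 and 3 of whole cells, and 0.0231%, 0.0463% and 0.0135% in those of EV. On CPM the order in whole cells was miR-365-3p with 454 ± 88.0 CPM (SD, n = 3), miR-193a-5p with 155 ± 118, miR-193b-3p with 59.3 ± 3.44 and miR-193b-5p with 35.6 ± 26.95. Only miR-365-3p stood above the next miRNA in this order without overlap of the libraries. In EV the order was miR-193a-5p with 160 ± 205 CPM (SD, n = 3), miR-193b-5p with 82.5 ± 25.6, miR-365-3p with 31.1 ± 53.6 and miR-193b-3p with 2.45 ± 4.24, and all neighbours in it overlapped. miR-193a-3p was all but missing, with 1 count in whole cell replicate 2 and 0 in the other 5 libraries, where a count of 0 allows up to 3 counts of the total, from 0.957 CPM in EV replicate 3 to 7.58 CPM in whole cell replicate 1. Such limits cover counting error only, as the sources name no step that removes copies of a starting molecule.

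**Figure D2:**
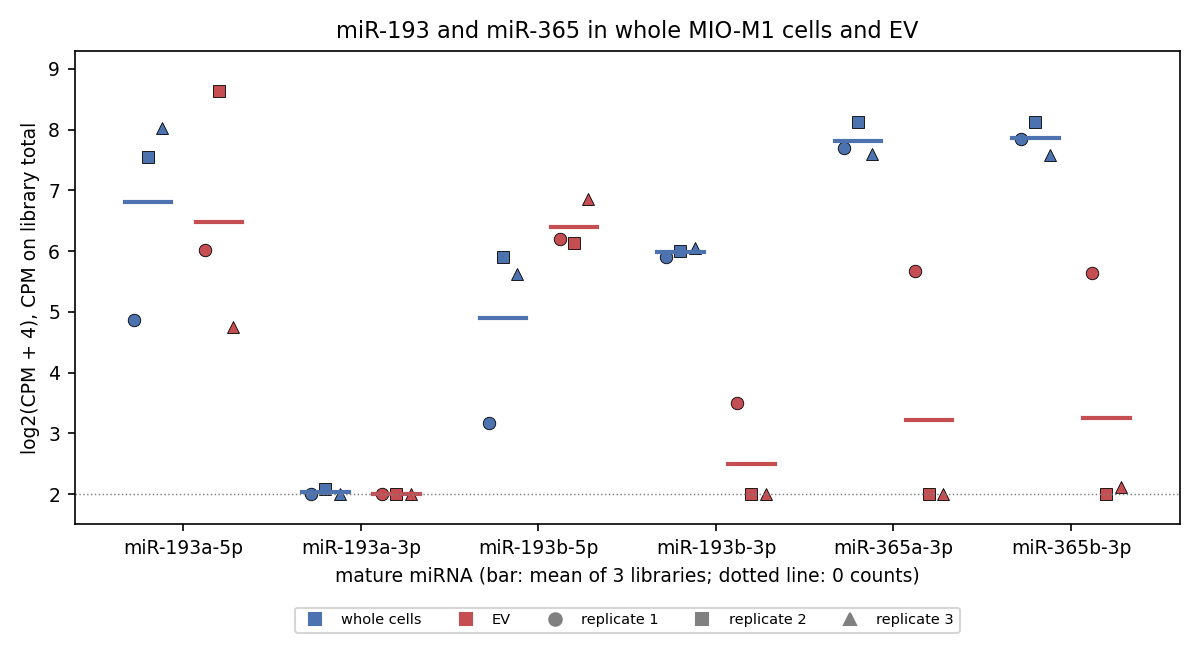
Level of each arm as log2(CPM + 4) on the library total (y axis) in the 3 whole cell and 3 EV libraries, with a bar at the mean of each group and a dotted line at 0 counts. The 3p arms of miR-193b and miR-365 were close together in whole cells and at or near 0 counts in EV replicates 2 and 3, whilst the 5p arms of miR-193a and miR-193b were present in every library.

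miR-365-3p, the most abundant member in whole cells, was lower in every EV library than in any whole cell library. This held for 27.9% of the tested miRNAs. Its levels were 432, 551 and 379 CPM in replicates 1, 2 and 3 of whole cells, and 93.0 CPM in EV replicate 1, 0 in EV replicate 2 and 0.319 CPM, a count of 1, in EV replicate 3. The whole cell libraries lay within 1.45-fold of each other, whereas the EV libraries ranged from 114 reads to none. The lowest whole cell library was 4.07-fold above EV replicate 1 and at least 257-fold above what a count of 0 allows in EV replicate 2. The means of the groups differed 14.6-fold. In bulk libraries such as these, fewer vesicles with a miRNA and less of it per vesicle cannot be told apart.

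miR-193b-3p, whose hairpin lies in the same host gene as that of miR-365a, had the same arrangement. Its counts were 22, 240 and 78 across whole cell replicates 1, 2 and 3, against 9, 0 and 0 across EV replicates 1, 2 and 3. These are 55.6, 60.1 and 62.3 CPM in whole cells, within 1.12-fold of each other, and 7.34 CPM in EV replicate 1, with an exact binomial 95% interval of 3.36 to 13.9 CPM. The lowest whole cell library was 7.56-fold above EV replicate 1, at least 37.8-fold above the limit of EV replicate 2 and at least 58.0-fold above that of EV replicate 3. The means differed 24.2-fold. In the 6 libraries miR-193b-3p and miR-365-3p varied together, with Pearson's r of 0.97, a value that includes the difference between the groups. It was taken between log2(CPM + 4) values after TMM scaling, edgeR's correction for composition. Both miRNAs were at or near 0 counts in EV replicates 2 and 3, and other tested miRNAs had a higher r with each, as given below.

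The 5p arm of the same miR-193b hairpin was not lower in EV. miR-193b-5p had 2, 224 and 57 counts across whole cell replicates 1, 2 and 3, or 5.05, 56.1 and 45.5 CPM, and 85, 135 and 351 counts in EV replicates 1, 2 and 3, or 69.4, 66.2 and 112 CPM. The EV libraries lay within 1.69-fold of each other, and the mean was 2.32-fold that of whole cells. On library totals every EV library was above every whole cell library, as for 20.5% of the tested miRNAs. After TMM scaling, however, EV replicate 2 with 55.7 CPM fell below whole cell replicate 2 with 60.1 CPM. The 2 counts in whole cell replicate 1, the library with the lowest total, allow 0.612 to 18.2 CPM (exact binomial 95% interval). In the same libraries 5 blood and serum miRNAs were summed. Their summed level was 172 to 1173 CPM in whole cells and 1718 to 2309 CPM in EV. Of these 5, miR-451a was at 0 in every whole cell library and in no EV library. miR-142-3p was at 0 in whole cell replicates 1 and 2 and in no EV library. miR-223-3p was at 0 in whole cell replicates 1 and 3 and also in EV replicate 3. The part of these miRNAs in the level of miR-193b-5p was not tested.

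miR-193a-5p varied widely in both groups. It had 10, 730 and 321 counts across whole cell replicates 1, 2 and 3, or 25.3, 183 and 256 CPM, and 75, 808 and 72 counts in EV replicates 1, 2 and 3, or 61.2, 396 and 22.97 CPM. The highest library was 10.2-fold above the lowest in whole cells and 17.3-fold in EV, and the groups overlapped fully. Whole cell replicate 1 stood low for the 5p arms only. It was 7.24-fold below the lower of the other whole cell libraries for miR-193a-5p and 9.01-fold below for miR-193b-5p, and 1.08-fold below for miR-193b-3p, whilst a gap of at least 5-fold was found for 8.31% of the 421 tested miRNAs for which it could be computed.

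EV were compared with whole cells for all 430 miRNAs that reached 5 CPM in 3 libraries or more, which included 5 of the 6 members and not miR-193a-3p. The whole cell libraries alone carried miR-193b-3p and the miR-365 rows through this filter. A miRNA was called where its log2 fold change was 2.5 or more in size and its Benjamini-Hochberg adjusted p, from the quasi-likelihood test of edgeR, was below 0.01. None of the 5 tested members was called, where 5.81% of all tested miRNAs were (4.42% higher and 1.4% lower in EV). None of the 5 had an unadjusted p below 0.05 by edgeR, against 35.8% of the tested miRNAs, and DESeq2 called none of the 5 at the same limits, against 16.7%. At an unadjusted p below 0.05 DESeq2 listed miR-193b-3p and both miR-365 rows, against 41.2% of the tested miRNAs. The miR-365 rows hold the same measurement, so the tallies over the 5 members count it more than once. Listing both rows is therefore not separate evidence. The sum of those rows was neither called nor listed at these limits by either tool. Counts were also simulated with the common dispersion of these data, 0.918, for all miRNAs alike. Of simulated miRNAs with a log2 change of 4, edgeR called 25.5% and DESeq2 67%, and both called 100% at a dispersion of 0.1. The simulation gave no miRNA a spread of its own and did not model counts missing from single EV libraries. A member that was not called is therefore not shown to be equal in the groups.

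For miR-193b-3p edgeR gave a log2 fold change of -4.54, the 38th lowest of 430, with a standard error of 2.05 and an adjusted p of 0.162. For miR-365-3p, as the sum of its rows, edgeR gave a log2 fold change of -3.77, the 45th lowest of 429. Its standard error was 1.99 and its adjusted p 0.228. These are large differences with large errors, as the EV libraries did not agree among themselves. A log2 fold change at least 2.5 below 0 was fitted for 15.3% of the tested miRNAs, and for 27.4% every EV library lay below every whole cell library after TMM scaling, as it did for miR-193b-3p and miR-365-3p. DESeq2 gave an adjusted p of 0.0263 for miR-193b-3p and 0.174 for miR-365-3p. The call on miR-365-3p changed with the EV libraries included, since without EV replicate 1, with 1 count left in EV, its adjusted p was 0.00690 by edgeR and it was called. For miR-193b-3p the adjusted p without EV replicate 1 was 0.0130 by edgeR, which is not below the threshold. When the trend on GC content of the mature sequence was removed, the log2 fold change of miR-365-3p moved to -6.04 (adjusted p = 0.110, edgeR), and with no filter on low counts it was called at -4.22 (adjusted p = 0.00336, edgeR).

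For miR-193b-5p edgeR gave a log2 fold change of 1.12 with a standard error of 1.09 and an adjusted p of 0.523. For miR-193a-5p it gave -0.24 with a standard error of 1.18 and an adjusted p of 0.916, an error larger than the difference. Without EV replicate 2, the library in which it was highest, the value for miR-193a-5p was -1.94 (adjusted p = 0.292, edgeR). Without whole cell replicate 1 the value for miR-193b-5p was 0.46 (adjusted p = 0.766, edgeR). With the GC trend removed the value for miR-193b-5p was 2.33 (adjusted p = 0.160, edgeR), and that of miR-193a-5p turned to 0.88 (adjusted p = 0.633, edgeR).

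**Figure D3:**
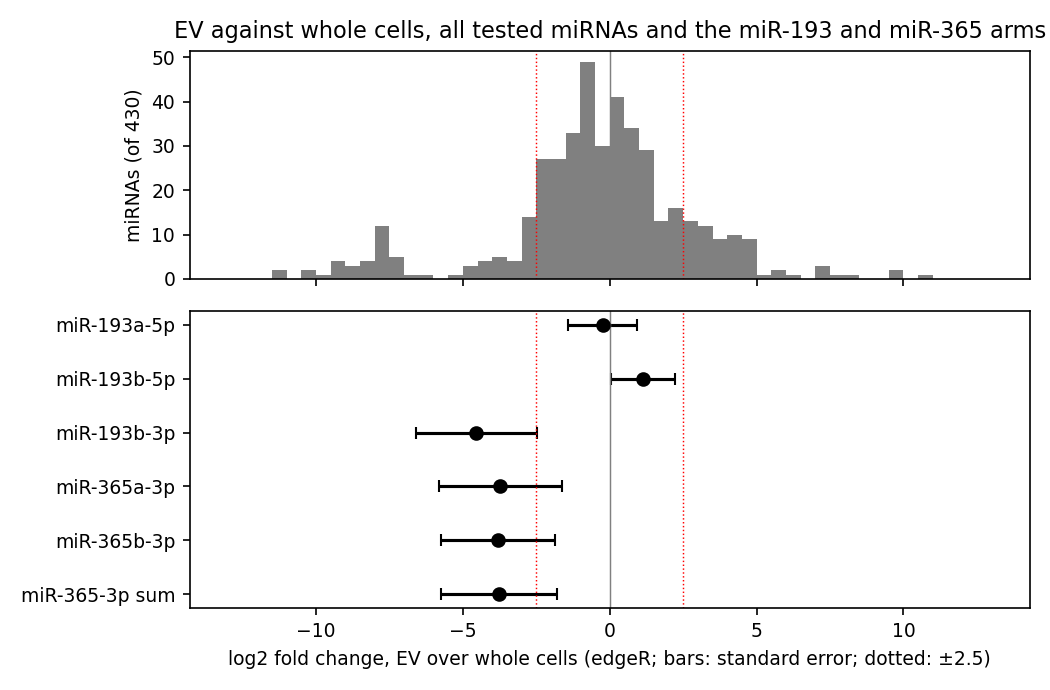
Top, number of miRNAs (y axis) by log2 fold change of EV over whole cells (x axis) for all 430 tested miRNAs. Bottom, the same log2 fold change for the tested arms and for the sum of the miR-365 rows, with bars of 1 standard error and dotted lines at the limits of 2.5 in either direction. The 3p arms lie between -4.54 and -3.72 and the 5p arms between -0.24 and 1.12.

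The arms of a hairpin were also compared within each library, by the share of the 5p arm among the counts of both, in which the scaling of the library cancels. For miR-193b this share was 8.33%, 48.3% and 42.2% across whole cell replicates 1, 2 and 3, on 24, 464 and 135 counts. It was 90.4%, 100% and 100% in EV replicates 1, 2 and 3, on 94, 135 and 351 counts. The exact binomial 95% interval of the highest whole cell share ended at 52.9% and that of the lowest EV share began at 82.6%. In whole cells the arms thus had comparable counts or the 3p arm had more. In every EV library the 5p arm had at least 82.6% of the counts by its interval. Whether the arms are recovered as reads to the same degree was not tested.

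The mean share of the 5p arm of miR-193b was 32.9% ± 21.5 over the 3 whole cell libraries and 96.8% ± 5.53 over the 3 EV libraries (SD), a difference of 63.9 percentage points (two-sided exact permutation test, p = 0.1, the smallest that 3 libraries against 3 allow). Without whole cell replicate 1 it was 51.6 points (exact permutation test, p = 0.2, the smallest that 2 against 3 allow). Of the 142 hairpins with at least 10 counts over both arms in every library, the groups did not overlap for 40.1%, and for 17.6% EV were higher. Among these 142 hairpins the median difference was -0.02 percentage points, and miR-193b had the 2nd highest difference.

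For miR-193a the 5p arm took 99.9% of the counts in whole cell replicate 2 and 100% in the other libraries, on 10 to 808 counts. As the 3p arm had 1 count over all libraries, the two-sided exact permutation test could give only p = 1. It therefore says nothing on a difference between the groups. In whole cell replicate 1 the 10 counts allow a share as low as 69.2% (exact binomial 95% interval). The 2 miR-193 hairpins, which differ at 4 positions in each arm, therefore differed in their arms within whole cells, where miR-193a was represented by its 5p arm and miR-193b by both.

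**Figure D4:**
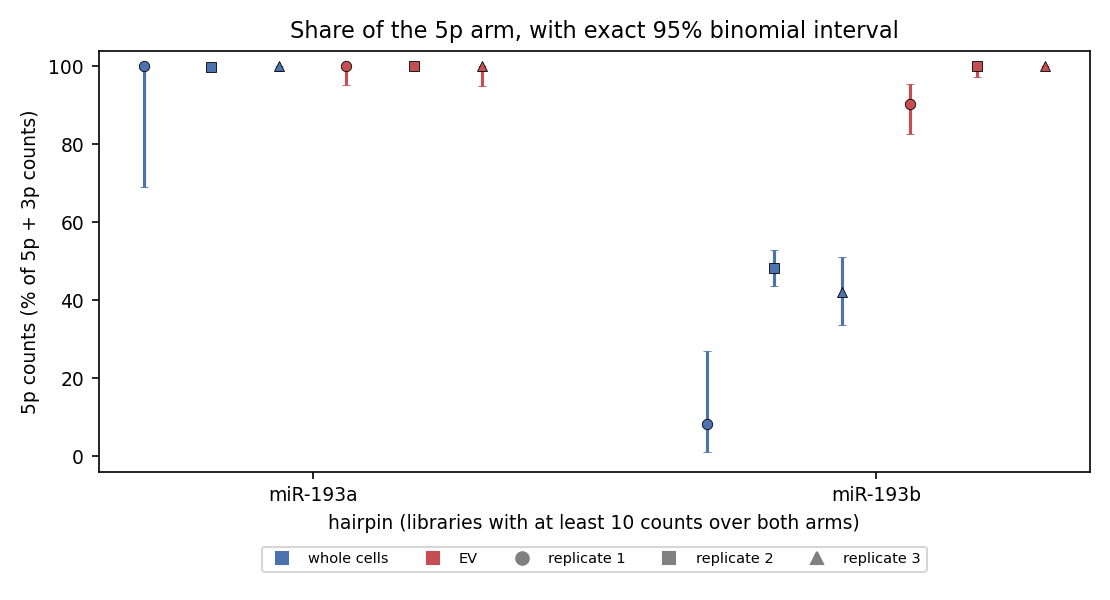
Counts of the 5p arm as a percentage of the counts of both arms (y axis) for the miR-193a and miR-193b hairpins, in each of the 3 whole cell and 3 EV libraries, with exact binomial 95% intervals. miR-193a lies at 99.9% to 100% throughout, and miR-193b at 8.33% to 48.3% in whole cells and 90.4% to 100% in EV.

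The 5p arms of the miR-365 hairpins are not identical, so that their reads show which locus gave them, without measuring its output. They share the seed GGGACUU and are shown because, unlike the 3p arms, their reads can be placed.
miR-365a-5p: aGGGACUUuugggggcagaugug
miR-365b-5p: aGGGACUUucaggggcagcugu
Over the first 22 bases they differed at U10C, G11A and A19C, with the base of miR-365a first. miR-365a-5p had 1, 14 and 21 counts across whole cell replicates 1, 2 and 3, against 16, 0 and 0 across EV replicates 1, 2 and 3. miR-365b-5p had 0, 17 and 12 counts in whole cells and 0, 41 and 0 in EV. Reads of both loci were thus found in whole cell replicates 2 and 3, at 3.51 and 16.8 CPM for miR-365a-5p and 4.26 and 9.58 CPM for miR-365b-5p. Neither arm passed the filter, and neither was tested.

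In EV these reads came in single libraries. miR-365a-5p was found in EV replicate 1, where miR-365-3p and miR-193b-3p were also found, and miR-365b-5p in EV replicate 2, with 41 counts of the 5p arm and 0 of the 3p arm. Of the 430 tested miRNAs, 27 (6.28%), among them miR-193b-3p and both miR-365 rows, had more than 3 counts in EV replicate 1 alone among the EV libraries. For 23 (5.35%) this held for EV replicate 2 alone and for 9 (2.09%) for EV replicate 3 alone. A count of 0 in at least 2 EV libraries was found for 20% of the tested miRNAs and in at least 2 whole cell libraries for 2.09%.

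No other hairpin near either cluster was represented to a like degree. The 4 further arms within 50 kb of a member, those of miR-4724 and miR-4725 on chromosome 17, had 6 counts in all, which were of miR-4725-3p in whole cell replicate 2.

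The miRNAs whose TMM-scaled log2(CPM + 4) values over the 6 libraries were most like those of each member by Pearson's r were taken from the other 425 tested miRNAs. For miR-365-3p they were miR-181b-5p (r = 0.99), miR-425-3p (r = 0.99) and miR-598-3p (r = 0.99), and for miR-193b-3p they were miR-487b-5p (r = 0.99), miR-218-1-3p (r = 0.99) and miR-149-5p (r = 0.99). For miR-193b-5p they were miR-532-5p (r = 0.95), miR-486-5p (r = 0.94) and miR-500a-3p (r = 0.92), and for miR-193a-5p miR-3187-3p (r = 0.98), miR-3928-3p (r = 0.91) and miR-125a-3p (r = 0.90). These values describe 6 libraries whose shares sum to a whole, and take no account of the size of the change. They were picked as the highest of 425 and include the difference between the groups, so their size is not evidence of a link. Among them miR-425-3p, miR-487b-5p and miR-218-1-3p had no counts in EV replicates 2 and 3. Between the members, r was 0.97 for miR-193b-3p and miR-365-3p, as given above, 0.31 for the 5p arms of miR-193a and miR-193b and -0.50 for the arms of miR-193b.

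Of 13 other miRNAs listed as repressors of cyclin D1, the G1 cyclin that miR-193b represses, all were tested and 1 was called lower and 0 higher in EV by edgeR, where 5.81% of all tested miRNAs were called. At an unadjusted p below 0.05 edgeR listed 3 of the 13, against 35.8% of all tested miRNAs. By DESeq2 at the same limits 1 was called lower and 1 higher, against 16.7% of all tested miRNAs, the latter being miR-19a-3p (log2 fold change 7.11, adjusted p = 0.00019, DESeq2). The called miRNA was miR-15b-5p, with a log2 fold change of -2.998 (standard error 0.34, adjusted p = 0.00308, edgeR). The largest values in the other direction were 7.36 for miR-19a-3p (adjusted p = 0.0144, edgeR) and 2.13 for miR-424-5p (adjusted p = 0.192, edgeR), and miR-497-5p was the next lowest with -1.55 (adjusted p = 0.548, edgeR). The median log2 fold change was -0.09 over this list and -0.23 over all tested miRNAs.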

How the data were processed

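Per the file headers, the authors aligned reads with Bowtie 1 and assigned them to the mature miRNAs of miRBase release 20 with featureCounts 1.5.0-p1 (strand setting 1), whereas the methods name Bowtie2 and a later release. The labels name bcl2fastq, cutadapt and DESeq2 as well. The deposited values are raw counts per mature miRNA in each of the 6 libraries, without normalisation, and the headers name no genome build. Groups were taken from the labelled fraction. The filter was 5 CPM or more in 3 or more libraries. TMM factors and the quasi-likelihood test came from edgeR 4.0.16 (prior count 0.125) in R 4.3.3, with Benjamini-Hochberg adjustment over all 430. The standard error was the log2 fold change divided by the root of F. Calls needed a log2 fold change of 2.5 or more in size with an adjusted p below 0.01. DESeq2 1.42.0 was the alternative. miR-365 rows were also tested as a sum. Shares of arms were compared by exact permutation tests (scipy 1.17.1). The scripts were tested on simulated data. Sequences came from RefSeq (GRCh38.p14, 2262 of 2576 names matched) and host genes from GENCODE 29. Alternatives were the tool, normalisation, filter, threshold, prior count, GC content, identical sequences and each library left out. The named miRNAs were the members, the other arms of their hairpins, arms within 50 kb, the 3 most correlated miRNAs per member, and the 2 largest changes each way in a list of cyclin D1 repressors. Members and lists were chosen with earlier results of these data known. Figures were drawn with matplotlib 3.10.9.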

Additional observations from a re-analysis of the deposited data

How the results depend on the processing

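Over the fits that each lacked 1 library, log2 fold changes ran from -11.96 to -3.27 for miR-365a-3p, from -10.01 to -3.35 for miR-365b-3p, from -10.88 to -3.35 for their sum, from -10.05 to -4.08 for miR-193b-3p, from 0.46 to 1.60 for miR-193b-5p and from -1.94 (without EV replicate 2) to 0.32 for miR-193a-5p. The lowest values of the 3p arms came without EV replicate 1, when EV held 0 or 1 counts, so that the fitted size depends on the prior count. In that fit both miR-365 rows were called (adjusted p = 0.00878 for each, edgeR) and so was their sum. The sum was also called at -4.22 with no filter on low counts. The sign of miR-193a-5p, which was never called, turned with library totals, to 0.043, and with the GC trend removed, to 0.88, as well as without whole cell replicate 3 and without EV replicate 1 or 3. The other alternatives changed no call and no direction of the log2 fold change of any tested member. The difference in 5p share ran from 51.6 to 71.5 percentage points for miR-193b and from 0.00 to 0.07 for miR-193a with a library left out, and with 1 count added to each arm it was 2.05 points for miR-193a. The cause of these changes was not tested. Over all miRNAs, edgeR called from 0 to 31 with a library left out, and 25 with all 6, against 72 by DESeq2. No paired analysis was possible because the labels give passages, none of which the groups share.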

Other observations

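Among the 142 hairpins counted on both arms in every library, those with the largest rise in the mean 5p share from whole cells to EV were miR-424 (78.4 percentage points), miR-193b (63.9), miR-423 (43.9), miR-628 (34.1) and miR-187 (30.0). The groups did not overlap for the first 4 of these and overlapped for miR-187. For miR-424 the mean 5p share was 21.6% in whole cells and 100% in EV, and for miR-423 it was 30.0% and 74.0%. These hairpins were ranked after their values were seen, and no test was made of the ranking.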
